A study of Mus musculus with 4 samples.

Results

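The actin cytoskeleton genes described here are 53 mouse genes that encode actins, the proteins that assemble, cut, bundle and anchor actin filaments, and the motors that move on them. They were listed by function, with earlier results of these peaks known, among them the density of Fscn1. A peak was counted for a member when its midpoint lay in the gene's RefSeq span of the mouse build mm10 (GRCm38). By this rule, 292 of the 43106 DHX9 peaks of the series lay in 23 of the 53 members.

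The study mapped RNA bound by DHX9, a helicase that unwinds double-stranded RNA, in neural progenitor cells differentiated from the male mouse embryonic stem cell line WT26 (C57BL/6x129sV). It used FLASH, in which ultraviolet light crosslinks protein to RNA and the RNA recovered with an antibody is sequenced. There were 2 groups, which per the labels differ only in the antibody, a rabbit antibody to DHX9 or rabbit IgG as control, with 2 biological replicates (A and B) each. All cells come from 1 stem cell line, and the values were 1 peak list for the 4 libraries together. Depth, peak heights and values per library were therefore unknown, no replicate error could be given, and no difference below carries a test. The list gives no IgG level. Expression was not measured, so a member at 0 is a gene without a called peak. In this bulk material, fewer cells with a bound RNA and less bound RNA per cell cannot be told apart. Over all protein-coding genes 18.9% held a peak, and 4.69% of those under 10 kb, so counts in short marker lists say little about cell identity. Of 12 neural progenitor markers 8 held a peak, while Sox2, Pax6, Nes and Hes1 held none. None of 12 muscle markers, among them the muscle actins Acta1, Acta2, Actc1 and Actg2, held a peak, and none of 6 pluripotency markers did. Of 6 fibroblast markers 4 did, with 28 peaks in Col3a1, 7 in Col1a1, 2 in Col1a2 and 1 in Pdgfra. Of 6 neuron markers 1 did, Map2, with 46 peaks. What part fibroblast-like or neuron-like cells have in the values below was not tested.

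Actin monomers join into polar filaments. Formins and Ena/VASP proteins lengthen straight filaments, while WAVE and N-WASP proteins switch on the Arp2/3 complex, which starts branches. Crosslinkers, tropomyosins and myosins then shape filaments into bundles and contractile cables, and spectrins and linker proteins tie them to the membrane. Neural progenitors use this machinery for their shape, their junctions and the migration of their offspring.

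A peak was present in 23 of 53 members (43.4%), and in 4133 of 21900 protein-coding genes (18.9%). At least 10 peaks were present in 9 of 53 members (17.0%), against 4.83% of protein-coding genes. Members are longer than most genes, with a median span of 65.9 kb against 17.1 kb, and long genes hold peaks more often. Among genes under 10 kb, 3 of 10 members held a peak, where 4.69% of protein-coding genes did. From 10 to 50 kb it was 6 of 13 members against 21.7%, and from 50 to 100 kb 5 of 11 against 33.4%. From 100 to 200 kb it was 7 of 13 against 38.4%, and at 200 kb or more 2 of 6 against 41.8%. The member share was thus above the background in the 4 shorter classes and below it in the longest one. These are descriptions of small counts, with no test.

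**Figure D1:**
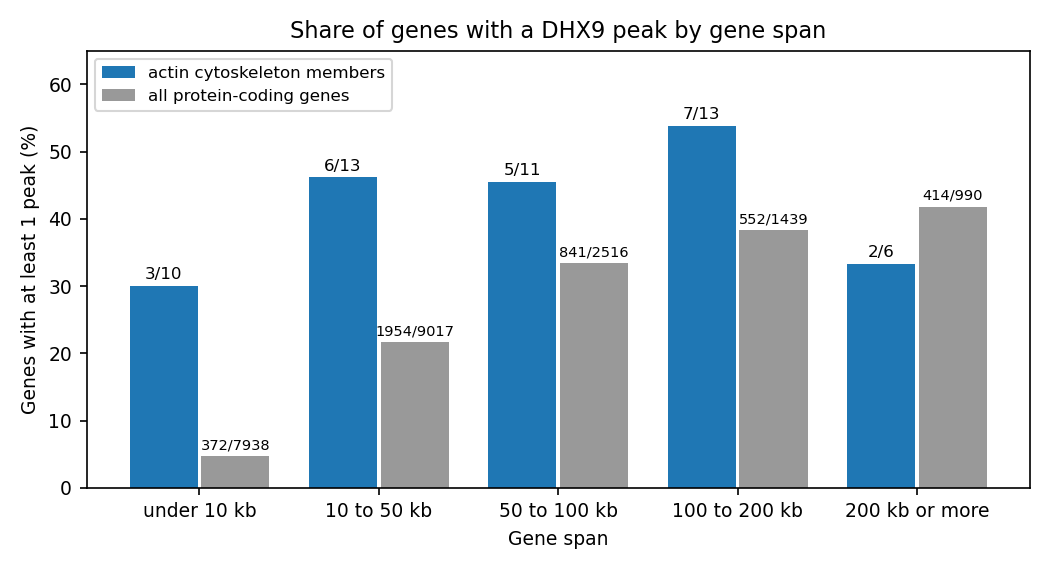
The bars give the percent of genes with at least 1 DHX9 peak (vertical axis) in 5 classes of gene span (horizontal axis), for the members in blue and all protein-coding genes in grey, with counts above the bars. The blue bar is the higher in each class up to 200 kb and the lower at 200 kb or more (2 of 6 members).

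The peaks were concentrated in few members. Sptbn1, Fmnl2, Wasf2, Fscn1, Enah and Sptan1 held 228 of the 292 peaks (78.1%), and the 9 members with 10 or more held 263 (90.1%). The other 14 members with a peak held 29, with 1 peak in 7 of them. The median over members with a peak was 3, beside 4 over protein-coding genes with a peak. Each of the 8 role groups had members with a peak and members without. The ranking changed with the measure, since Sptbn1 led by number (66 peaks) and Fscn1 by peaks per kb of span (2.18).

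**Figure D2:**
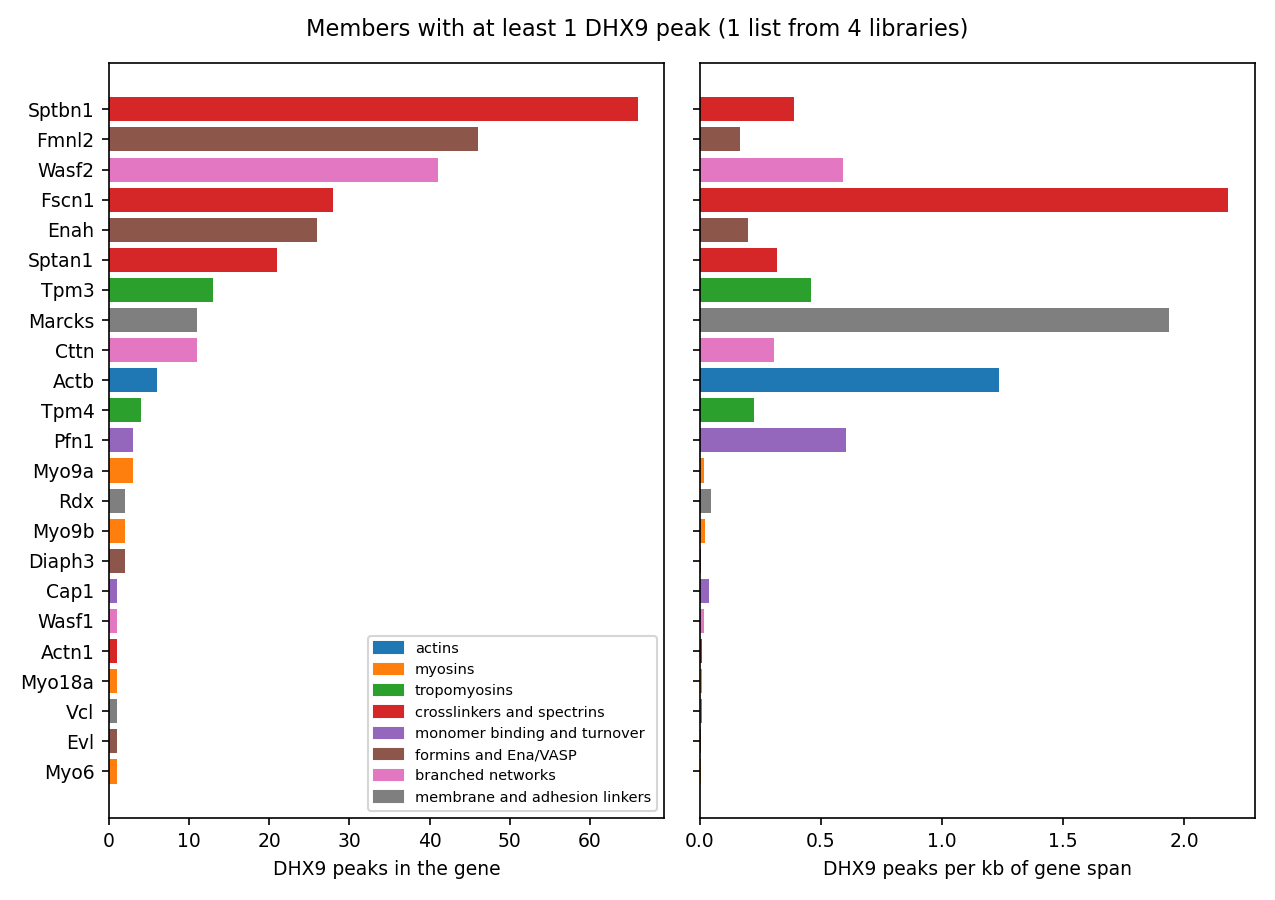
The bars show the 23 members with a peak, by number of DHX9 peaks (left, from 66 in Sptbn1 to 1) and by peaks per kb of gene span (right), coloured by role. Fscn1 (2.18 per kb), Marcks (1.94) and Actb (1.23) stand above 1 peak per kb, while Fmnl2, with the second most peaks, has 0.166.

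Fscn1, which encodes fascin, the protein that packs filaments into the tight bundles of filopodia, was the densest member. It spans 12.8 kb (chromosome 5, 142960355 to 142973189) and held 28 peaks, all on the plus strand, which is its own, and all in no other gene. Of 1057 protein-coding genes with 10 or more peaks, 4 had more peaks per kb. With places counted in percent of the span from the 5′ side, by the strand of a gene's peaks, the peaks ran from 5.71% to 98.4%, with 4 in the first 20% of the span and 5 in the last. Their lengths ran from 99 to 381 bases with a median of 186.5. They covered 42.1% of the gene's bases, and the longest distance between neighbouring midpoints was 1.26 kb. The first peak began 594 bases after the annotated start. The 300-base window around that start, 250 bases before and 50 from the start on, is shown because the densest member had no peak in it. Here and below bases under a peak of the same strand are in capitals, and sequences are from RefSeq (GRCm38.p6), 5′ to 3′.

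Fscn1, chr5:142960105-142960404, plus strand: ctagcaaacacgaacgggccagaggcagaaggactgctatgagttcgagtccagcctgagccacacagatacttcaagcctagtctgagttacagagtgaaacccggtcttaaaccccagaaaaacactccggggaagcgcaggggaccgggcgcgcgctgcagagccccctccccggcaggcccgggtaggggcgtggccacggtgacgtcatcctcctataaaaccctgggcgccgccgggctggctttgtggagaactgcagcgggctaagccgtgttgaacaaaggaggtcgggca

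The spectrins form the mesh under the plasma membrane, with alpha and beta chains side by side. Sptbn1, the beta chain gene (chromosome 11, 30099395 to 30268384), held 66 minus-strand peaks over 169.0 kb, 62 of them in no other gene; the remaining 4 were split evenly between the predicted genes Gm51887 and Gm8098. By number it ranked 84th of 4133 protein-coding genes with a peak. Its peaks formed 17 runs when neighbours within 2 kb were joined, and 6 of these runs were single peaks. The largest run held 17 peaks over 9.78 kb near the middle of the gene, the next 11 peaks over 5.86 kb close to its 5′ side. The longest stretch without a peak midpoint was 49.2 kb, in the 3′ part, and only 3 peaks lay beyond it. Sptan1, the alpha chain gene (chromosome 2, 29965560 to 30031451), held 21 plus-strand peaks, or 0.319 per kb beside 0.391 for Sptbn1. A run of 10 peaks in 3.83 kb, between 32.8% and 38.4% of its span, held 47.6% of its peaks.

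Sptbn1 has 2 starts in the promoter table, and peaks lay on both sides of each. Of its 66 peaks, 28 lay upstream of the start at base 30219772 and 34 upstream of the start at base 30198257, so transcripts from these starts do not cover them. The next peak began 972 bases after the first of these starts and 410 bases after the second. Both windows are shown because they lie among the peaks and hold none. The window at base 30219772 is 45.3% G and C with 2 CG pairs, and the one at base 30198257 is 57.0% with 21.

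Sptbn1, start at base 30219772, chr11:30219723-30220022, minus strand: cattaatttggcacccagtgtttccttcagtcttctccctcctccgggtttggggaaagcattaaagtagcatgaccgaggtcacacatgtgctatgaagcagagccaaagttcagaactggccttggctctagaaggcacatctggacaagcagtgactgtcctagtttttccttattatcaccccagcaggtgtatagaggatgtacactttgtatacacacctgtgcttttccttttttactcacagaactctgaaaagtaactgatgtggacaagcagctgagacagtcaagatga
Sptbn1, start at base 30198257, chr11:30198208-30198507, minus strand: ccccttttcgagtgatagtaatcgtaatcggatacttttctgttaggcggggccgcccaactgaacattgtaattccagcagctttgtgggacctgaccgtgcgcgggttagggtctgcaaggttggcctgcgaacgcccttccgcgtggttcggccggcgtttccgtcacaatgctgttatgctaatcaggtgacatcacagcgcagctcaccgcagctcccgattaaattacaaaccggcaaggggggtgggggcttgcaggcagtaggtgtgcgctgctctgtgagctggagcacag

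The other crosslinker genes carried few peaks or none. Actn1, an alpha-actinin gene, had 1 peak over 92.9 kb, at 6.89% of the span, and its paralog Actn4 had 0. Flnc, Palld and Limch1, which encode a filamin, the actin-binding scaffold palladin and a myosin II regulator, had 0, although Palld spans 391.3 kb and Limch1 311.3 kb. The 8 genes of this group, spectrins included, held 116 peaks.

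Among the genes for filament elongation, Fmnl2 and Enah stood apart from the rest. Fmnl2, a formin of lamellipodia and filopodia, held 46 plus-strand peaks over 276.5 kb (chromosome 2, 52857717 to 53134202), all in no other gene. Of these, 41 (89.1%) lay in the first 20% of the span. The densest run held 14 peaks in 5.10 kb, starting 29.2 kb into the gene, and the last peak lay at 59.7% of the span. Enah, whose Ena/VASP protein helps filaments grow at their tips, held 26 minus-strand peaks over 131.2 kb (chromosome 1, 181896384 to 182027556). Runs of 9 and 7 peaks, 4.43 kb and 1.86 kb long, lay between 18.8% and 32.7% of the span, and 3 peaks lay at its far end, near 94.0%. Of the other genes in this group, Diaph3 had 2 peaks over 485.9 kb, 1 of them also in Gm41223, and Evl had 1. Diaph1, Fmnl3, Daam1, Daam2 and Vasp had 0.

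Of the genes for branched networks, Wasf2, which encodes the WAVE2 subunit of the complex that activates Arp2/3, held 41 plus-strand peaks over 69.2 kb (chromosome 4, 133130531 to 133199748). A run of 20 peaks in 8.19 kb began 3.84 kb into the gene and held 48.8% of them. Further runs of 7 and 6 followed between 29.8% and 42.2% of the span, and 6 peaks lay from 76.7% on. Its paralog Wasf1 had 1 peak over 55.1 kb. Cttn, the gene of cortactin, which steadies branches, held 11 minus-strand peaks in a single run of 4.36 kb, between 58.9% and 70.7% of its 35.8 kb span (chromosome 7, 144435724 to 144471560). Wasl, Coro1b and Coro1c, which encode N-WASP and a pair of coronins, had 0.

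Tropomyosins wind along filaments and set which other proteins can bind. Tpm3 held 13 plus-strand peaks in 1 run of 5.99 kb (chromosome 3, 90092434 to 90098423), and Tpm4 held 4 plus-strand peaks over 17.9 kb (chromosome 8, 72135288 to 72153142), or 0.224 per kb beside 0.460 for Tpm3. In both genes the peaks lay towards the 3′ side, from 70.3% to 91.0% of the span in Tpm3 and from 68.2% to 89.8% in Tpm4. The nearest peak began 12913 bases after the second of the 2 annotated starts of Tpm3. Tpm1, of nearly the same span as Tpm3 (27.1 against 28.3 kb), had 0, as did Tpm2.

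The actin gene Actb held 6 minus-strand peaks over 4.86 kb (chromosome 5, 142903115 to 142907976), or 1.23 per kb. Of these, 3 lay between 90.1% and 97.9% of the span, and the other 3 between 26.8% and 51.2%. The predicted gene Gm38733 shares 2 of them. A pair of neighbouring peaks in Actb overlapped each other, so they are not separate stretches of RNA. Fmnl2 has the only other such pair among the members. Actg1, the second cytoplasmic actin gene, had 0 over 2.81 kb. How reads that match several places were handled is not given in the sources used here, and actin genes have many pseudogene copies. Of 9 table entries named as copies of a member, Actb-ps1 and the Tpm3 and Marcksl1 copies among them, none held a peak.

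Genes for monomer binding and filament turnover held 4 peaks in all. Pfn1, the gene of profilin, which hands actin monomers to formins, had 3 minus-strand peaks over 4.96 kb (chromosome 11, 70651844 to 70656799), 1 of them also within the span of Eno3. Cap1, which recycles monomers, had 1. Pfn2 and the cofilin genes Cfl1 and Cfl2, whose proteins sever filaments, had 0. Pfn1 was the only one of the 20 members with both a peak and a promoter window to have a peak in its window, and its window is shown for that reason. Counted by window, 1 of 25 windows of members with a peak (4.0%) held a same-strand peak. Over protein-coding genes with a peak, 81 of 4307 windows (1.88%) did. The Pfn1 peak began 14 bases after the start and covered the last 36 bases of the window. It is the peak that also lies within the span of Eno3.

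Pfn1, chr11:70654601-70654900, minus strand: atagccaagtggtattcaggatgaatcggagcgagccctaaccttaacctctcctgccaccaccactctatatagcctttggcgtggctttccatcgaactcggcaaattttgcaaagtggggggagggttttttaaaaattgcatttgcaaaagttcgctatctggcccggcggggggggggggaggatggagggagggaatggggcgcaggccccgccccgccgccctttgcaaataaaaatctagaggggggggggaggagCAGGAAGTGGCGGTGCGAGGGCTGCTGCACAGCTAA

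Among genes that link filaments to membranes and adhesions, Marcks stood apart. It encodes a protein that binds actin and phosphoinositides at the membrane, is known for its role in the developing brain, and held 11 minus-strand peaks over 5.68 kb (chromosome 10, 37133243 to 37138926). At 1.94 peaks per kb it ranked 12th of the 1057 genes with 10 or more peaks, and 43.8% of its span lay under peaks. The pair nearest its 5′ side lay at 4.59% and 7.27% of the span, followed by a stretch of 1.93 kb without a midpoint and then 9 peaks. Its paralog Marcksl1 had 0 over 2.40 kb. Rdx, the gene of radixin, had 2 peaks 242 bases apart, and Vcl, the gene of vinculin, had 1 over 104.3 kb. Ezr, Tln1, Tln2 and Dbn1, which encode ezrin, the talins and drebrin, had 0; Tln2 is the longest member without a peak (417.0 kb).

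Myosin genes were the sparsest group, with 7 peaks in 4 of 11 genes (36.4%) over 1582 kb of span, or 0.00443 per kb. Over all protein-coding genes 18.9% held a peak, with 0.0400 peaks per kb of span. Most of the myosin genes span more than 100 kb. Of protein-coding genes from 100 to 200 kb, 38.4% held a peak, with 0.0384 peaks per kb, so the myosin share was near that of long genes and the density lower. Myo9a held 3 plus-strand peaks over 178.0 kb (chromosome 9, 59750848 to 59928866), 1 of them also in Gm20275. They lay at 23.3%, 42.0% and 42.4% of the span. Its paralog Myo9b held 2. Myo6, the motor that walks to the minus end, and Myo18a had 1 each, at 89.2% and 35.1% of their spans. The non-muscle myosin II genes Myh9 and Myh10, whose motors pull contractile cables, had 0, as did the unconventional myosin genes Myo1c, Myo1d, Myo1e, Myo5a and Myo10, which serve membranes, cargo transport and filopodia. The other groups ranged from 0.0212 per kb in the membrane linkers to 0.782 in the pair of actins, which rests on Actb alone.

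Some paralogs of like span differed in number. It was 41 peaks in Wasf2 against 1 in Wasf1, 26 in Enah against 1 in Evl, and 13 in Tpm3 against 0 in Tpm1. These pairs were picked after their values were seen and carry no test. In Myo9a and Myo9b the values were close, at 0.0169 and 0.0227 per kb.

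In the 16 members with 2 or more peaks, each of the 285 peaks was on its gene's majority strand, beside 99.7% over protein-coding genes with 2 or more peaks; the other 7 members have 1 peak each. The promoter table gave a strand for 20 of the 23 members with a peak, and all 257 of their peaks in no other gene were on it. Over protein-coding genes with a known strand this share was 99.5% (30263 of 30403 peaks). For Actb, Cttn and Marcks no strand was given, so their 5′ side was taken from their peaks. Of the 292 peaks, 283 (96.9%) lay in no other annotated gene, against 91.7% over protein-coding genes.

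The median length of member peaks was 155 bases (76 to 619), against 154 over protein-coding genes. Neighbouring midpoints were a median of 502 bases apart (269 distances), against 490. Distances over 10 kb made up 5.20% in members and 6.19% over protein-coding genes. Runs of 3 or more peaks, 28 in 12 members, held 237 of the 292 peaks and had a median length of 3.72 kb. Runs were not counted over all protein-coding genes, so this share has no background beside it. Of the 13 members with 3 or more peaks, none had a same-strand peak within 10 kb past either end of its span. That count was not made over all protein-coding genes, so it has no background beside it. Of members with 10 or more peaks, 0 of 9 had one within 10 kb past the 3′ end, and of protein-coding genes with 10 or more peaks 100 of 1057 (9.46%) did; at that share, fewer than 1 of 9 genes would have one.

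Along the span, 36.6% of member peaks lay in the first 20% and 11.99% in the last 20%. Over protein-coding genes, where a peak counts once for each gene that holds it, the shares were 29.8% and 12.6%. The first of these values rests largely on Fmnl2, since without it 26.8% of the remaining 246 peaks lay in the first 20%. Single members spread widely around the pooled shares. Fscn1 was covered along its length, Marcks at its 5′ side and from 41.2% on, Fmnl2 and Wasf2 mostly on the 5′ side, and Cttn, Tpm3 and Tpm4 only from 58.9% on.

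**Figure D3:**
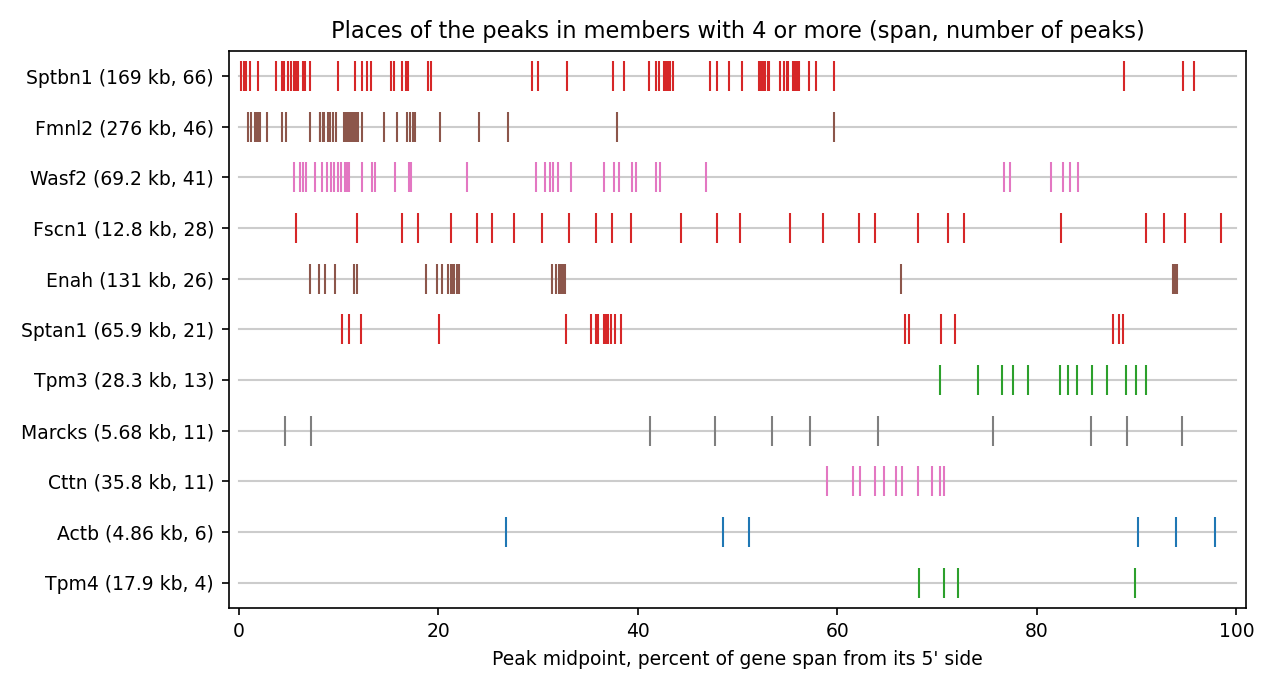
Each tick is the midpoint of a DHX9 peak, placed by percent of the gene span from the 5′ side (horizontal axis), for the 11 members with 4 or more peaks, with span in kb and number of peaks beside the name. Ticks run along all of Fscn1, crowd into the first 20% in Fmnl2, and form 1 block in Cttn (58.9% to 70.7%) and in Tpm3 (70.3% to 91.0%).

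**Figure D4:**
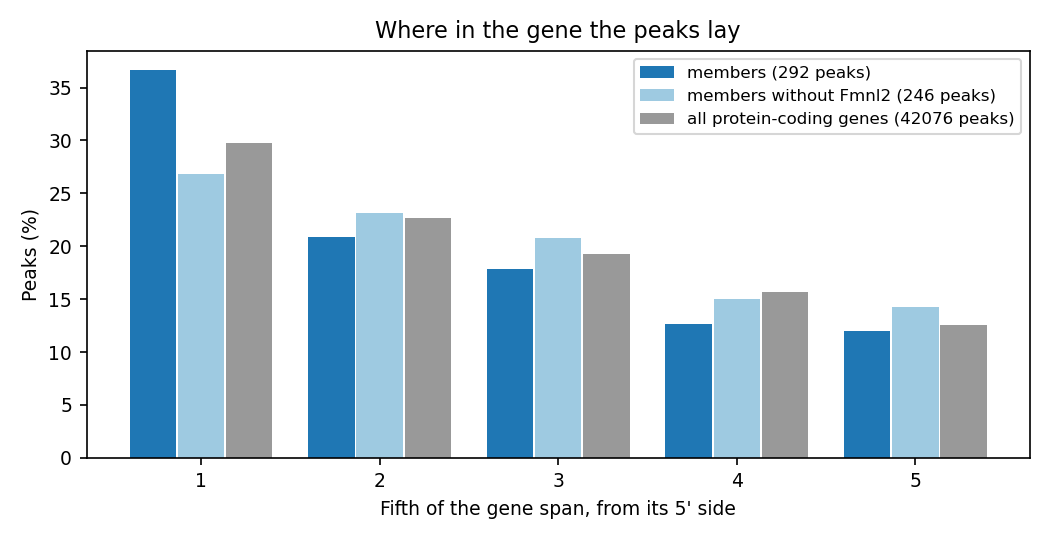
The bars give the percent of peaks (vertical axis) in 5 equal parts of the gene span from the 5′ side (horizontal axis), for the members, the members without Fmnl2, and all protein-coding genes. The first part holds 36.6% of member peaks, 26.8% without Fmnl2 and 29.8% over protein-coding genes.

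Of 75 further genes of the actin pathway, 36 (48.0%) held a peak and 15 held 10 or more, with 447 peaks in all. Over all protein-coding genes 18.9% held a peak and 4.83% held 10 or more. The 75 genes span 6518 kb together, and they were not compared by class of span. Among protein-coding genes the share with a peak was 33.4% from 50 to 100 kb and 38.4% from 100 to 200 kb. What part of the difference goes with span was not tested. Macf1, a giant linker of actin and microtubules, led with 107 over 338.2 kb. Actr2, an Arp2/3 subunit, had 37, and Cnn3, a calponin, had 33 or 1.04 per kb. Rhoa, the GTPase that drives contractile cables, and Mtss1, a membrane-bending protein, had 30 each. Lima1, a filament bundler, had 26. Anln, the anillin of the dividing cell, Mprip, which ties myosin phosphatase to actin, and Nckap1, a WAVE complex subunit, had 17 each. Within the Arp2/3 complex the counts differed, with 14 in Arpc2, 2 in Arpc1a, 2 in Arpc4 and 1 in Actr3.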

How the data were processed

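The authors deposited 1 list of 43106 peaks with chromosome, start, end and strand (1-based positions), made with PEAKachu per the file itself. It holds no score or count per library. The aligner was Bowtie2 2.2.6, per the submitters' processing notes, which name the builds hg19 and mm10; peaks were read as mm10. Caller settings and the handling of reads matching several places are not given in the sources used here.

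Gene spans, start sites and sequences came from RefSeq tables of GRCm38.p6, which gave no exons, so exon and intron were not told apart. Of the 53 members, 46 had an entry in the promoter table. A peak belonged to each gene whose span held its midpoint. Counts were made with Python 3.11.15 and pandas 2.3.3, and the assignment was tested on simulated data. With 1 list there was no test over samples.

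The members and lists were chosen with earlier results of these data known. Values are given in full for the 12 members with the most peaks (13 with a tie) and the 8 densest with at least 5, and for the 8 further pathway genes with the most peaks (9 with a tie); Arp2/3 subunits and paralog pairs were named after their values were seen. Alternatives were longer peaks, merging within 50 bases, any overlap, peaks in no other gene, and at least 3 peaks per gene. Leaving out Fmnl2 or Sptbn1 was added after the data were seen, as were the classes of gene span.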

Additional observations from a re-analysis of the deposited data

How the results depend on the processing

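Of 43 values under the alternatives, 37 stayed close to the main one (counts and peaks per kb within 1.5 times, shares and the median distance within 95% binomial intervals). These intervals take peaks as independent, although most lay in runs, so they are only a yardstick. The 37 include the 6 strand shares, and the any-overlap setting gave the same values as the main one. With at least 3 peaks required, 13 members had them in place of 23 with any. The counts of members with a peak under the alternatives have no share over protein-coding genes beside them. With peaks of 153 bases (the median) or longer, which leaves fewer peaks by construction, 153 of 292 member peaks, 0.0291 peaks per kb of span and a median distance of 768 bases remained; 18 members held such a peak. With peaks within 50 bases merged, the median distance was 702 bases. Without Fmnl2, 26.8% of member peaks lay in the first 20% of the span. All member peaks were on their gene's majority strand in each setting. For genes with 1 peak this is so by construction, and dropping or merging peaks could not change it once all 292 were on that strand. No paired analysis was possible because the list joins the 4 libraries, and for the same reason no replicate could be left out and no counting error given.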

Other observations

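Actb and Fscn1 are neighbours on chromosome 5, with 52.4 kb between them and their peaks on opposite strands. No peak of the series lay between them. Tpm2 and Tln1 are neighbours on chromosome 4, 7.93 kb apart, and both had 0 peaks.

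The spans of 6 members hold a microRNA hairpin: Mir7017 in Wasf2, Mir6997 in Sptan1, Mir342 in Evl, Mir6935 in Actg1, Mir6944 in Dbn1 and Mir190a in Tln2. No peak overlapped any of them, and overlap was not counted over the hairpins of other genes. Peaks covered only 9.32% of the span of Wasf2, 5.09% of Sptan1 and 0.129% of Evl. The nearest peak of the same gene was 6.73 kb away in Wasf2, 5.04 kb in Sptan1 and 47.5 kb in Evl, and the other 3 genes had no peak.

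The promoter windows of members were searched for the CArG box, the site known to bind serum response factor, which reads the same on both strands. It was found in 1 of 25 windows of members with a peak (Vcl) and in 2 of 36 windows of members without one (Actg1 and Myo1e). Over all windows of the same length in the table, 1.63% held it. Only the 46 members with an entry in the promoter table were searched, so Actb, Cttn and Marcks, which have peaks, were not. The median share of G and C in the windows was 60.7% in members with a peak and 64.2% in those without. It was 62.7% over protein-coding genes with a peak and 54.7% over those without.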
